A study of Homo sapiens with 16 samples.

Results

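The genes described here are the amino acid transporters of families SLC1, SLC3, SLC7, SLC36, SLC38 and SLC43. The rule reads gene symbols and no measured value, and the families were picked with earlier results of these data known. They number 40 of the 28278 genes counted. RNA-seq counted transcripts in 16 libraries of the established human melanoma lines SKMEL28 and A375. SKMEL28 gave 1 wild-type library, 3 libraries of a line labelled MITFKO, and 3 from each of clones 3 and 13 of a double knockout (DKO) labelled MITFKO and TFE3KO. A375 gave 3 wild-type and 3 TFE3KO libraries. All SKMEL28 groups but the wild type thus carry the MITFKO label, and both A375 groups lack it. Each DKO clone is 1 edited clone, and the libraries of a group came from separate flasks, so p-values measure the spread between cultures and not between independent edits. The culture medium was RPMI for SKMEL28 but DMEM for A375, so line and medium cannot be told apart. All 16 libraries were listed with a medium change 24 hours before harvest and 10% fetal bovine serum. These settings thus did not differ between groups, and their part in the transporter levels was not tested.

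Cells take up amino acids through exchangers, sodium-coupled and proton-coupled carriers and facilitators. Transporters of the lysosomal membrane carry amino acids out of the lysosome, and there the Rag GTPases recruit mTORC1, the kinase that links amino acid supply to growth. TFE3 and MITF are related transcription factors that bind E-box motifs, and mTORC1 holds TFE3 in the cytoplasm by phosphorylation. When amino acids run short, translation of the transcription factor ATF4 rises, and ATF4 is known to activate several transporter genes, among them SLC7A11, SLC3A2 and SLC38A2.

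Total counts ran from 17320855 to 31269126 per library, and the 40 genes took 0.347% of them in the wild-type SKMEL28 library against 0.427% to 0.526% in the other 15. Levels below are CPM, a gene's counts relative to the library total, scaled with TMM factors over all 16 libraries, and the values of a group are in the order of its libraries 1 to 3. TFE3 read 45.0 CPM in SKMEL28 wild type, 75.4 ± 3.79 in MITFKO, 9.63 ± 1.85 in clone 3, 47.0 ± 2.98 in clone 13, 119.5 ± 5.67 in A375 wild type and 11.6 ± 0.685 in A375 TFE3KO (SD, n = 3, except the lone wild-type library). Clone 13 thus kept more TFE3 RNA than clone 3. MITF RNA was not called different between the libraries labelled MITFKO and the wild-type library (log2 change -0.072 ± 0.086, adjusted p = 0.516, edgeR), so RNA level does not check that label. MITF stood at 539 CPM in SKMEL28 wild type, 512 ± 30.8 in MITFKO, 802 ± 29.8 in clone 3, 894 ± 65.3 in clone 13, 34.7 ± 4.01 in A375 wild type and 18.0 ± 0.787 in A375 TFE3KO. Of 12 melanoma markers, 10 or 11 reached 1 CPM in the SKMEL28 groups and 7 in the A375 groups, where TYR was at 0 counts and the mean of PMEL below 1 CPM. Defining markers of other cell types were mostly below 1 CPM, which was reached by at most 2 of 6 keratinocyte, 4 of 6 fibroblast and 3 of 6 leukocyte and endothelium markers in any group. The summed keratinocyte markers ran from 20.9 to 80.2 CPM and the fibroblast markers from 11.9 to 111 CPM, the highest in clone 3. The summed leukocyte and endothelium markers ran from 26.4 to 322 CPM, most of it CD68, a lysosomal protein that is not confined to macrophages. These sums differed between groups, and their part in the transporter results was not tested. The wild-type SKMEL28 library also differed in its file header, which names another input number (3) than 14 of the others (38).

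A mean of at least 1 CPM in any group was reached by 21 of the 40 genes, and 19 were silent by that measure. The heat map shows the 21 by library. The lowest of the 21, SLC1A3, peaked at 9.19 ± 1.01 CPM, and the highest silent gene, SLC38A3, reached a mean of 0.602 CPM. No count in any library was found for 7 silent genes (SLC7A3, SLC7A13, SLC7A14, SLC36A2, SLC36A3, SLC38A8 and SLC38A11). A count of 0 over all libraries allows a level of up to 0.00905 CPM, taken as 3 counts of the summed total, and covers counting error only. The other 12 silent genes had at most 78 counts in all libraries together. Silent genes included the brain and kidney transporters SLC1A2 and SLC3A1, the system N glutamine carriers SLC38A3 and SLC38A5, and SLC7A7, SLC7A9 and SLC7A10, light chains of other epithelial or brain exchangers. SLC43A2, silent at a highest mean of 0.290 CPM, also passed the filter on low counts in SKMEL28 and was called in no comparison there. By family, 4 of 7 SLC1, 1 of 2 SLC3, 6 of 13 SLC7, 2 of 4 SLC36, 6 of 11 SLC38 and 2 of 3 SLC43 genes were expressed. Of the 21, 19 reached 1 CPM in all 6 groups, the exceptions being SLC38A1, expressed in A375, and SLC7A8, expressed in SKMEL28.

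**Figure D1:**
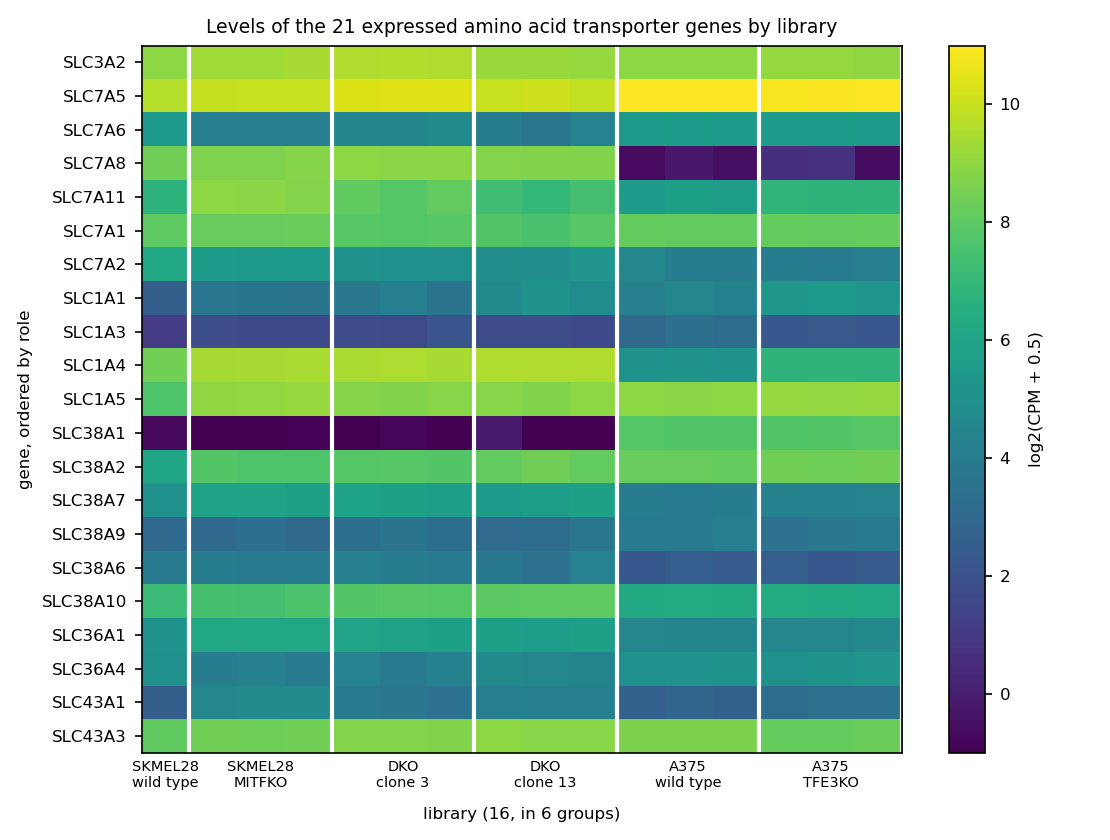
Heat map of log2(CPM + 0.5) for the 21 expressed transporter genes (rows, ordered by role) in the 16 libraries (columns, in 6 groups separated by white lines). SLC7A5 is the brightest row in both lines, and SLC7A8 and SLC38A1 are dark in A375 and SKMEL28 respectively.

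Compared per kilobase of the longest coding transcript, SLC3A2 stood highest in all 4 SKMEL28 groups, at 221 CPM per kilobase in wild type and 295 in MITFKO, followed by SLC7A5 at 179.9 and 222. In A375 the order was reversed, SLC7A5 at 444 and SLC3A2 at 223 CPM per kilobase in wild type. These are partner chains of the same leucine exchanger. SLC1A5, a glutamine exchanger, moved from the sixth place in SKMEL28 wild type (71.5) to the third in MITFKO (187). SLC7A11 moved from the tenth place (11.2) to the seventh (48.4). The summed level of all 40 genes was 3299 CPM in SKMEL28 wild type, 5078 ± 84.1 in MITFKO, 5369 ± 39.0 in clone 3, 4882 ± 10.3 in clone 13, 4545 ± 36.6 in A375 wild type and 4694 ± 63.4 in A375 TFE3KO (SD, n = 3).

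Promoter windows of 300 bases, 250 before and 50 after a gene's start, were read for 18 of the 21 expressed genes from a RefSeq table of build GRCh38.p14. SLC7A11, SLC7A2 and SLC43A3 had no entry. Searched on both strands were TGATGNAA (the core of the amino acid response element that ATF4 binds), CACGTG (the E-box), TCACGTGA (the extended E-box, which contains the E-box) and TGACNNNGC (the antioxidant response element). Several genes have more than 1 window, 35 in all for the 18 genes. TGATGNAA was found in 6 of these 35 windows, of 6 genes, and in 3.62% of all 35116 windows. CACGTG was found in 6 of the 35, of 6 genes, and in 7.26% of all windows. TGACNNNGC was found in 6 genes and 6 of the 35 windows, near its share of 13.3% of all windows. TCACGTGA was found in 1 of the 35 windows, that of SLC36A1 at -9 from the start, and in 0.98% of all windows. The windows below are examples from genes with results that follow: SLC36A1 and SLC43A1 hold E-boxes, and SLC3A2, SLC1A4 and SLC7A1 hold the ATF4 core. Not shown are the E-boxes of SLC1A5, SLC38A7, SLC7A5 and SLC7A8 and the ATF4 core of SLC1A3, SLC1A5 and SLC38A1. None of the motifs was found for 6 expressed genes with windows, SLC1A1, SLC36A4, SLC38A2, SLC38A6, SLC38A9 and SLC38A10. Capitals mark any of the motifs on either strand, and a match is a description of letters and not a site.
SLC36A1, chr5:151447353-151447652, plus strand: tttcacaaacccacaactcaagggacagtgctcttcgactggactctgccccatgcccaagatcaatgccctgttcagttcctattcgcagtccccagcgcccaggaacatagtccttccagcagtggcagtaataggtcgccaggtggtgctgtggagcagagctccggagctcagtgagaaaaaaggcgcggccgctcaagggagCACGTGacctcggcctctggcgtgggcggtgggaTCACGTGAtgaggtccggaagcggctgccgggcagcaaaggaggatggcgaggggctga
SLC43A1, chr11:57515653-57515952, minus strand: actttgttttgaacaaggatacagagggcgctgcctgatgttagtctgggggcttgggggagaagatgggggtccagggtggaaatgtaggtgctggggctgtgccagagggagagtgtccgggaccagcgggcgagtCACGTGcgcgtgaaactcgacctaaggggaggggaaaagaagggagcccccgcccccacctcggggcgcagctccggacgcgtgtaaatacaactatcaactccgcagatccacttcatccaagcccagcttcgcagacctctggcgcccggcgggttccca
SLC3A2, chr11:62881449-62881748, plus strand: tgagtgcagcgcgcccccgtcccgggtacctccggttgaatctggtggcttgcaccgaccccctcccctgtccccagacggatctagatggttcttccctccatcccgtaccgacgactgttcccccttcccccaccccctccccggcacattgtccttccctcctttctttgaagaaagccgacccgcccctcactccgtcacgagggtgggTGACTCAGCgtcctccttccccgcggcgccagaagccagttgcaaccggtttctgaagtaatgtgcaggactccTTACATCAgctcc
SLC1A4, chr2:64989149-64989448, plus strand: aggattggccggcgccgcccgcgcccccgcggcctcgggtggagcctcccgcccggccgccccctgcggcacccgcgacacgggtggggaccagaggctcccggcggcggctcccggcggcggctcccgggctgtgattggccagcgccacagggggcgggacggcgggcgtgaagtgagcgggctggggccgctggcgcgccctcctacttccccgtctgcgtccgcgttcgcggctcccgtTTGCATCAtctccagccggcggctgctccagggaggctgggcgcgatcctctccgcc
SLC7A1, chr13:29595639-29595938, minus strand: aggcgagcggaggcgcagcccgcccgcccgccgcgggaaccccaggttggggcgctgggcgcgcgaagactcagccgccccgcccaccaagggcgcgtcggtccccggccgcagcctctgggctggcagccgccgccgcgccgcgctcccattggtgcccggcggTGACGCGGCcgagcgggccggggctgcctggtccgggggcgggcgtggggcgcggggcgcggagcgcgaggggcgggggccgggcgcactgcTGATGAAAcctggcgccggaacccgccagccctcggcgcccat
The match in SLC43A1 began at -112, that of TGATGNAA in SLC3A2 at 37, in SLC1A4 at -7 and in SLC7A1 at 7.

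In MITFKO most of the expressed transporters stood above the wild-type library. The comparison sets the libraries labelled MITFKO against 1 wild-type library. That library is labelled replicate 4, while the MITFKO libraries are 1 to 3, and its file header names another input number. The MITF edit and any separate handling of that library thus cannot be told apart. Of 20 expressed members tested, 13 rose and 3 fell at an adjusted p under 0.05 (edgeR quasi-likelihood test with Benjamini-Hochberg adjustment over 14605 genes). Of all genes tested 48.6% were called, 25.2% as higher and 23.4% as lower, and the members' median log2 change was 0.386 against 0.015 for all genes. Here and below, all genes tested include some under the limit of 1 CPM set for expressed members, such as SLC43A2. The shares are thus not over genes of like level. The wild type was 1 library, assumed in the fit to vary like the other groups. Log2 changes in this comparison also moved with the GC content of transcripts: the median of genes in 20 bins of GC ran from -0.241 to 0.503. Relative to genes of like GC, 14 of the 16 called members kept their sign, with shifts of at most 0.403. The exceptions were SLC7A5 (0.30, then -0.024) and SLC38A10 (0.36, then -0.047), whose changes were thus no larger than the median of genes of like GC.

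In the DKO clones transporters went both ways against MITFKO. These comparisons ask what editing TFE3 adds in cells that already carry the MITF edit. In clone 3, 6 of the 20 expressed members rose and 6 fell, beside 35.9% of all genes called (18.2% higher, 17.6% lower). In clone 13, 6 rose and 7 fell, beside 40.7% called (20.5% higher, 20.2% lower). SLC7A11, SLC43A1, SLC1A5, SLC36A1, SLC7A1 and SLC7A2 fell in both clones, and SLC38A10 and SLC43A3 rose in both. SLC3A2 rose in clone 3 and fell in clone 13. In the mean of both clones 7 rose and 6 fell, beside 41.1% called (20.4% higher, 20.7% lower). Of the 7, SLC1A1, SLC36A4, SLC38A2, SLC7A5 and SLC7A8 were called in only 1 clone, and their clone libraries overlapped MITFKO. The calls of SLC36A4 and SLC7A8 in the mean ended without some replicates, that of SLC7A8 also under other settings (adjusted p = 0.0517 to 0.211, edgeR). Between the clones themselves, 5 members were higher in clone 13 and 5 lower, beside 27.6% of all genes called (14.3% higher, 13.4% lower). The 5 higher became 3 without clone 3 replicate 2 or clone 13 replicate 3 and 2 without clone 3 replicate 3. The second libraries of both clones stood apart for some members, as given below, and without them 6 rose and 6 fell in clone 3 and 6 rose and 7 fell in clone 13.

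Against the wild-type library, the mean of both DKO clones was higher for 14 of 20 expressed members and lower for 4, beside 52.9% of all genes called (26.5% higher, 26.4% lower). All 13 members that rose in MITFKO were also higher in the clones than in that library. Both comparisons share the lone wild-type library, with the limit given for it above, and those of the clones with MITFKO share the MITFKO libraries. The 14th was SLC1A3, whose call ended without replicate 1 or 2 of clone 13 or replicate 3 of clone 3 and under other settings (adjusted p = 0.0519 to 0.0860).

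**Figure D2:**
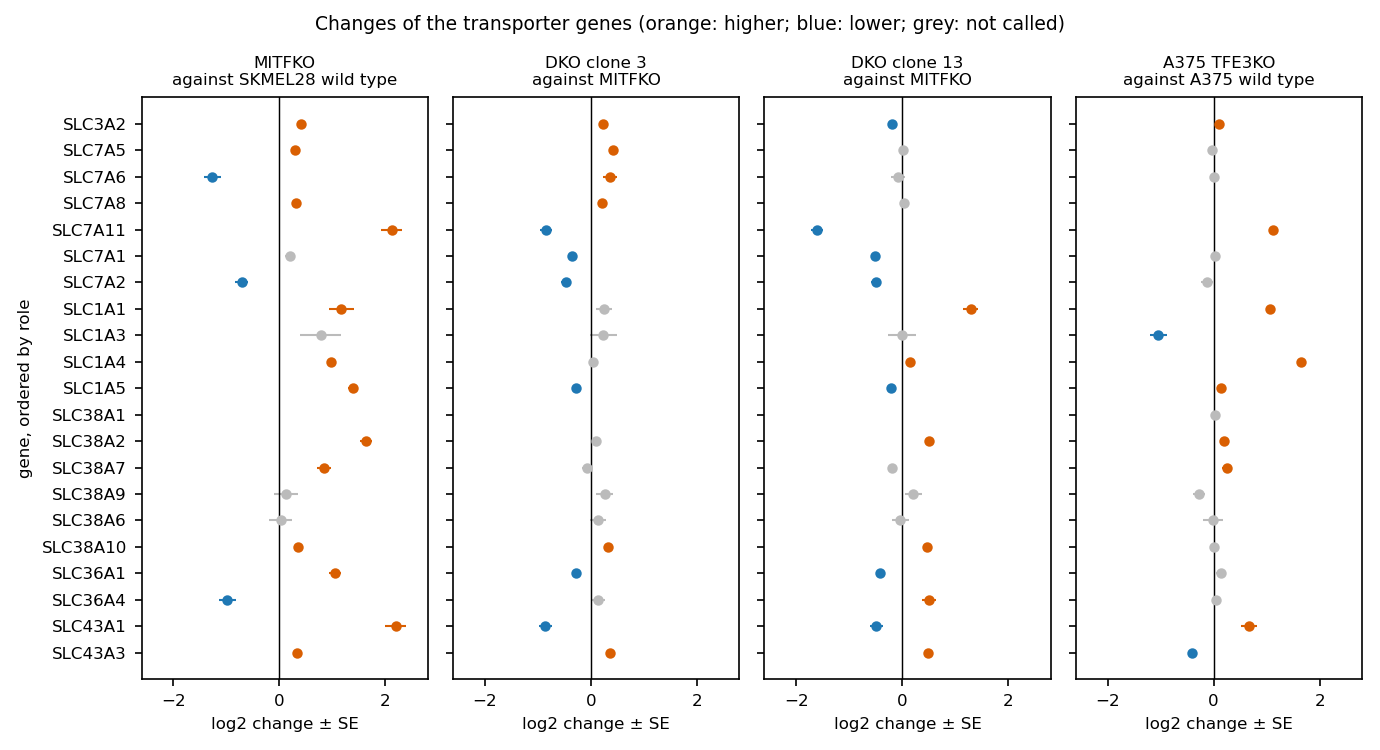
Log2 change ± SE of each expressed transporter gene in 4 comparisons (panels), with orange for higher, blue for lower and grey for not called at an adjusted p of 0.05. SLC7A11 and SLC43A1 stand farthest right in MITFKO against wild type and lie left of 0 in both DKO clones, and in A375 they lie right of 0.

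SLC3A2 encodes the CD98 heavy chain, which carries the light chains SLC7A5, SLC7A6, SLC7A8 and SLC7A11 to the plasma membrane. It read 491 CPM in SKMEL28 wild type, 637, 647 and 679 in MITFKO, 755, 781 and 753 in clone 3 and 575, 582 and 560.4 in clone 13. Clone 3 stood above and clone 13 below every MITFKO library, and no groups overlapped. Its log2 change was 0.41 ± 0.075 in MITFKO (adjusted p = 7.30e-05), 0.22 ± 0.051 in clone 3 (adjusted p = 0.00166) and -0.19 ± 0.052 in clone 13 (adjusted p = 0.00457, edgeR throughout). Clone 13 less clone 3 was -0.41 ± 0.052 (adjusted p = 2.97e-06). The mean over both clones was 0.015, since the changes were opposite. In A375 it read 495, 489 and 502 CPM in wild type and 543, 547 and 512 in TFE3KO, a rise of 0.11 on the log2 scale (adjusted p = 0.00296).

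SLC7A11, the light chain that exchanges cystine for glutamate and feeds glutathione synthesis, had the largest change of the expressed members in the mean of the DKO clones. It read 108 CPM in SKMEL28 wild type and 489, 476 and 435 in MITFKO, 4.33-fold higher (log2 change 2.12 ± 0.19, adjusted p = 5.17e-06). Clone 3 read 269, 226 and 281 CPM, 1.80-fold lower than MITFKO (log2 change -0.85 ± 0.12, adjusted p = 2.72e-04). Clone 13 read 161, 125 and 173 CPM, 3.05-fold lower (log2 change -1.61 ± 0.12, adjusted p = 2.23e-06). No SKMEL28 groups overlapped: MITFKO was highest, clone 3 next, clone 13 below it and the wild type lowest. The second library was the lowest of its clone in both. Without both second libraries the log2 changes were -0.76 in clone 3 and -1.48 in clone 13. Clone 13 stood below clone 3 by a log2 difference of -0.76 ± 0.12 (adjusted p = 9.65e-04). Clone 13 also held more TFE3 RNA than clone 3. In bulk libraries a lower level in every cell and fewer expressing cells cannot be told apart.

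In A375 SLC7A11 went the other way, reading 49.0, 55.5 and 51.6 CPM in wild type and 114, 112 and 111 in TFE3KO. It was thus 2.16-fold higher in TFE3KO (log2 change 1.11 ± 0.053, adjusted p = 3.51e-24), with no overlap. The change in the DKO clones less that in A375 was -2.33 ± 0.13 (adjusted p = 1.29e-09), the most negative of the 21. Exons of SLC7A11 overlap those of SLC7A11-AS1 on the opposite strand, and the sources used here do not say whether strand was counted. The antisense gene itself stood at no more than a mean of 0.678 CPM in any group.

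**Figure D3:**
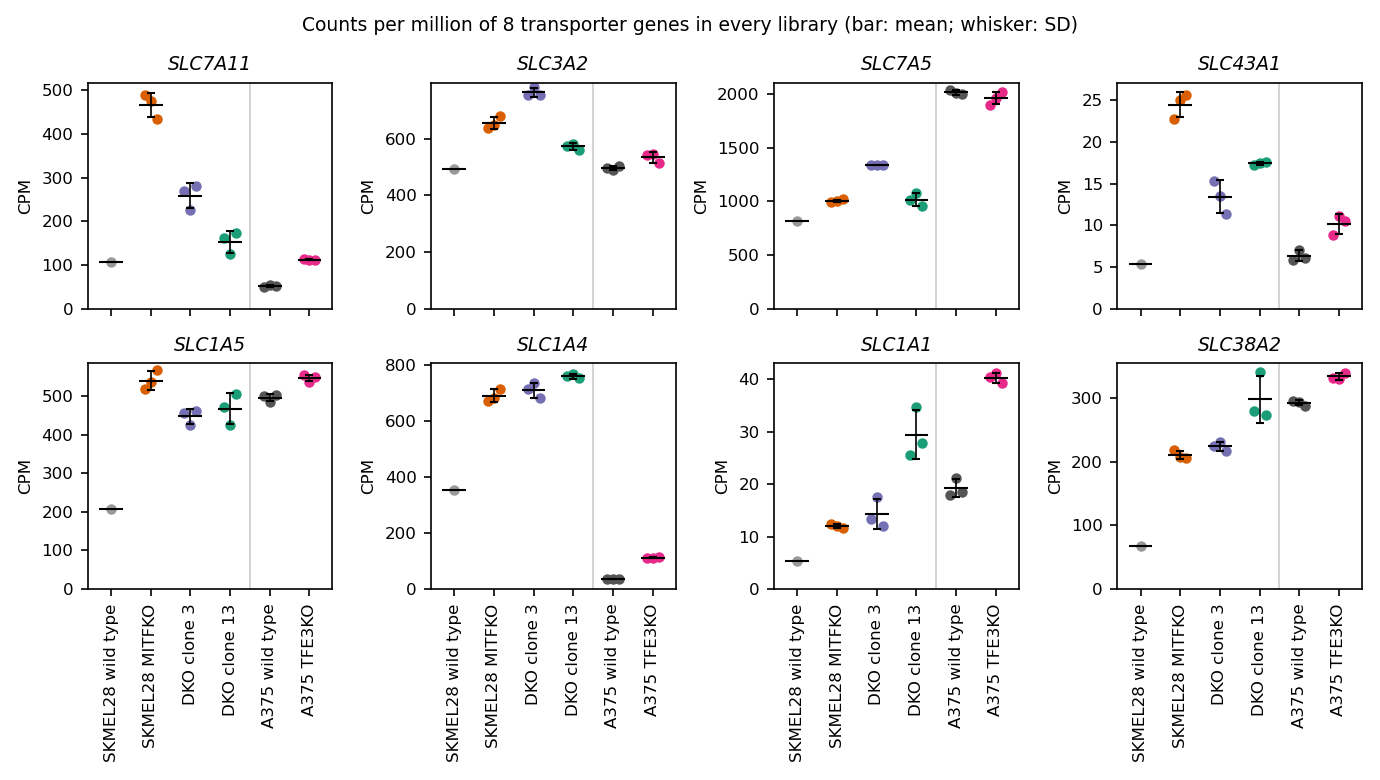
CPM of 8 transporter genes in each library (points), with group means (bars) and SD (whiskers; none for the lone SKMEL28 wild-type library); the grey line separates SKMEL28 from A375. SLC7A11 is highest in MITFKO, SLC7A5 and SLC3A2 are highest among SKMEL28 groups in clone 3, and SLC1A1 is highest in A375 TFE3KO.

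SLC7A5 (LAT1) imports leucine in exchange for glutamine and had the highest CPM of all members in every group. It read 816 CPM in SKMEL28 wild type, 998, 1004 and 1018 in MITFKO, 1337, 1339 and 1338 in clone 3 and 1010.0, 1078 and 957 in clone 13. Clone 3 stood above all other SKMEL28 libraries, and clone 13 overlapped MITFKO. Clone 3 was 1.33-fold higher than MITFKO (log2 change 0.41 ± 0.054, adjusted p = 3.34e-06), whereas clone 13 was not called (log2 change 0.012 ± 0.054, adjusted p = 0.881). The difference between the clones, -0.40 ± 0.054, was close to that of its heavy chain SLC3A2 (-0.41 ± 0.052), and was called (adjusted p = 8.06e-06). The other expressed light chains were also lower in clone 13 than in clone 3: SLC7A11 (-0.76), SLC7A6 (-0.44) and SLC7A8 (-0.19). The calls of SLC7A6 and SLC7A8 did not hold throughout. For SLC7A5, A375 read 2041, 2006 and 1999 CPM in wild type and 1902, 1967 and 2016 in TFE3KO, which overlapped (log2 change -0.037 ± 0.027, adjusted p = 0.275). A pseudogene copy, SLC7A5P2, was counted separately at means of 2.13 to 5.33 CPM, so some reads could be split between them.

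SLC7A8 (LAT2), another neutral amino acid exchanger, read 335 CPM in SKMEL28 wild type, 405, 406 and 445 in MITFKO, 496, 479 and 484 in clone 3 and 431, 422 and 429 in clone 13. It rose in MITFKO (log2 change 0.32 ± 0.077, adjusted p = 0.00142) and again in clone 3 (log2 change 0.22 ± 0.054, adjusted p = 0.00293). Clone 13 overlapped MITFKO. SLC7A6 (y+LAT2), which exports arginine in exchange for glutamine, read 41.3 CPM in SKMEL28 wild type and 16.96, 17.1 and 17.4 in MITFKO, the largest fall of the members there (log2 change -1.27 ± 0.17, adjusted p = 1.24e-06). It read 21.1, 20.7 and 24.2 CPM in clone 3 and 16.6, 12.5 and 19.4 in clone 13, above MITFKO in clone 3 (log2 change 0.36, adjusted p = 0.0340) and overlapping it in clone 13. The call in clone 3 ended without replicate 1 or 3 of that clone or without any MITFKO library (adjusted p = 0.0563 to 0.153). A375 read 44.7, 48.3 and 44.1 CPM in wild type and 48.0, 45.5 and 43.1 in TFE3KO, which overlapped. Exons of SLC7A6 overlap SLC7A6OS on the opposite strand, which stood at means of 6.87 to 11.1 CPM.

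The cationic transporters SLC7A1 and SLC7A2 carry arginine, lysine and ornithine, and both fell in both clones. SLC7A1 (CAT1) read 259.5 CPM in SKMEL28 wild type, 294, 296 and 303 in MITFKO, 238, 226 and 235 in clone 3 and 209.7, 188 and 232 in clone 13. All 6 clone libraries stood below the MITFKO libraries and below the wild type. It was not called in MITFKO (0.20 ± 0.091, adjusted p = 0.0767). With the compared groups alone, the change of SLC7A1 in MITFKO (0.188) was called. The log2 change of SLC7A1 against MITFKO was -0.35 ± 0.064 in clone 3 (adjusted p = 1.63e-04) and -0.50 ± 0.064 in clone 13 (adjusted p = 1.60e-06). SLC7A2 (CAT2) read 73.7 CPM in SKMEL28 wild type, 48.3, 44.4 and 42.5 in MITFKO, 34.3, 31.7 and 32.1 in clone 3 and 30.0, 28.6 and 37.1 in clone 13. Of the 3 members that fell in MITFKO, SLC7A6, SLC36A4 and SLC7A2, it alone (log2 change -0.71 ± 0.12, adjusted p = 5.90e-05) also fell in clone 3 (-0.46, adjusted p = 6.47e-04) and clone 13 (-0.50, adjusted p = 2.26e-04). In A375 neither was called: SLC7A1 read 284, 274 and 275 CPM in wild type and 289, 279 and 281 in TFE3KO, and SLC7A2 21.9, 16.1 and 16.3 and 16.5, 15.3 and 18.0, all overlapping. The lines' TFE3 effects differed for SLC7A1 (-0.45 ± 0.072, adjusted p = 1.28e-05) and were not shown to differ for SLC7A2 (-0.34 ± 0.15, adjusted p = 0.0694). The difference for SLC7A2 was called without A375 wild-type replicate 1 (adjusted p = 0.00766), without clone 13 replicate 3 (adjusted p = 0.0233) or with no filter on low counts (adjusted p = 0.0371).

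The neutral exchangers SLC1A5 and SLC1A4 both rose in MITFKO. SLC1A5 (ASCT2), a main route of glutamine entry, read 206 CPM in SKMEL28 wild type and 518, 535 and 566 in MITFKO, 2.62-fold higher (log2 change 1.39 ± 0.10, adjusted p = 6.51e-11). It read 455, 424 and 462 CPM in clone 3 and 471, 425 and 504 in clone 13, all below the lowest MITFKO library. The log2 change was -0.27 ± 0.062 in clone 3 (adjusted p = 0.00153) and -0.21 ± 0.062 in clone 13 (adjusted p = 0.00960). Without MITFKO replicate 3 the call in clone 13 ended (adjusted p = 0.0615). A375 read 499, 485 and 504 CPM in wild type and 553, 536 and 549 in TFE3KO, a rise of 0.14 ± 0.030 on the log2 scale with no overlap (adjusted p = 1.17e-04).

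SLC1A4 (ASCT1), which exchanges serine, alanine and cysteine, read 352 CPM in SKMEL28 wild type and 672, 681 and 716 in MITFKO (log2 change 0.97 ± 0.079, adjusted p = 8.55e-10). It read 713, 734 and 682 CPM in clone 3, overlapping MITFKO, and 760.2, 769.9 and 752 in clone 13, just above it (log2 change 0.14 ± 0.052, adjusted p = 0.0343). That small rise was not called without replicate 1 of clone 13 or replicate 1 or 2 of MITFKO, or under 2 other settings (adjusted p = 0.0563 to 0.138). In A375 its level was much lower and its change the largest of the 20 expressed members tested. It read 34.1, 36.6 and 35.4 CPM in wild type and 111, 110.4 and 113 in TFE3KO, 3.15-fold higher (log2 change 1.65 ± 0.056, adjusted p = 1.23e-30). The TFE3 effects of the lines differed by -1.55 ± 0.062 (adjusted p = 1.58e-17).

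The glutamate and aspartate transporters SLC1A1 and SLC1A3 had single-digit levels in SKMEL28 wild type. SLC1A1 (EAAT3), which also carries cysteine, read 5.33 CPM in SKMEL28 wild type and 12.4, 12.1 and 11.6 in MITFKO (log2 change 1.17 ± 0.23, adjusted p = 1.99e-04). It read 13.4, 17.5 and 11.9 CPM in clone 3, overlapping MITFKO, and 25.6, 34.7 and 27.9 in clone 13, 2.45-fold above it (log2 change 1.29 ± 0.14, adjusted p = 2.05e-07). The second library was the highest of each clone, and without both of them the log2 change in clone 13 was 1.16. The difference between the clones, 1.04 ± 0.14, was the largest of the members (adjusted p = 8.31e-06). A375 read 18.0, 21.1 and 18.6 CPM in wild type and 40.3, 41.2 and 39.2 in TFE3KO, 2.10-fold higher with no overlap (log2 change 1.07 ± 0.081, adjusted p = 2.78e-16). The rise in the mean of both clones, 0.77, was not shown to differ from that in A375 (difference -0.28 ± 0.16, adjusted p = 0.173), but the difference was called without clone 3 replicate 2 (-0.37, adjusted p = 0.0478) or without both second libraries (-0.43, adjusted p = 0.00764).

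SLC1A3 (EAAT1) read 1.68 CPM in SKMEL28 wild type and between 2.59 and 4.19 in the 9 edited SKMEL28 libraries. It was not called in MITFKO or in either clone against MITFKO. In A375 it read 8.32, 10.3 and 8.96 CPM in wild type and 4.42, 4.60 and 4.35 in TFE3KO, 2.06-fold lower (log2 change -1.04 ± 0.16, adjusted p = 4.35e-07), the larger of only 2 falls there. SLC1A1 and SLC1A3, which carry the same substrates, thus moved in opposite directions in A375.

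SLC38A2 (SNAT2), a sodium-coupled carrier of small neutral amino acids known to rise when amino acids are withdrawn, read 67.9 CPM in SKMEL28 wild type and 218, 207 and 206 in MITFKO. This was 3.10-fold higher (log2 change 1.63 ± 0.11, adjusted p = 6.28e-11). It read 224, 231 and 217 CPM in clone 3, overlapping MITFKO (log2 change 0.095 ± 0.070, adjusted p = 0.313). It read 279, 341 and 274 CPM in clone 13, where it rose (log2 change 0.50 ± 0.069, adjusted p = 5.01e-06) and where the second library was the highest. Without both second libraries the log2 change in clone 13 was 0.40. SLC38A2 was thus not lower in the clones, unlike SLC7A11. A375 read 296, 294 and 288 CPM in wild type and 332, 330.2 and 339 in TFE3KO, a rise of 0.19 ± 0.033 on the log2 scale (adjusted p = 3.38e-06).

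SLC38A1 (SNAT1), the other expressed carrier of that system, had 3 counts in SKMEL28 wild type, 1 in MITFKO, 1 in clone 3 and 7 in clone 13, and read 226, 216 and 214 CPM in A375 wild type and 216, 223 and 232 in A375 TFE3KO. The A375 groups overlapped and were not called.

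At the lysosome, SLC36A1 (PAT1) exports small neutral amino acids with protons, and 1 of its promoter windows holds the extended E-box. It read 34.4 CPM in SKMEL28 wild type and 72.3, 69.3 and 72.1 in MITFKO, 2.07-fold higher (log2 change 1.05 ± 0.11, adjusted p = 5.23e-08). It read 63.1, 58.1 and 54.4 CPM in clone 3 and 54.4, 52.0 and 53.6 in clone 13, all below MITFKO and above the wild type. The log2 change was -0.28 ± 0.073 in clone 3 (adjusted p = 0.00447) and -0.42 ± 0.073 in clone 13 (adjusted p = 8.88e-05). In A375 it read 21.9, 20.8 and 20.5 CPM in wild type and 22.9, 22.1 and 24.2 in TFE3KO, which did not overlap but were not called (log2 change 0.13 ± 0.090, adjusted p = 0.251). The lines' effects differed (-0.47 ± 0.10, adjusted p = 3.51e-04).

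SLC38A9, the lysosomal arginine sensor that signals to mTORC1, was not called in MITFKO, in either clone or in A375. It read 8.04 CPM in SKMEL28 wild type, 8.05, 9.77 and 8.44 in MITFKO, 10.2, 11.6 and 9.63 in clone 3 and 8.80, 9.003 and 12.5 in clone 13, with overlap between the edited groups. A375 read 15.2, 14.5 and 17.7 CPM in wild type and 10.9, 13.5 and 14.9 in TFE3KO (log2 change -0.28 ± 0.12, adjusted p = 0.0518). In A375 the fall was called without wild-type replicate 2 (adjusted p = 0.0328) or TFE3KO replicate 3 (adjusted p = 0.0124) and with DESeq2's size factors (adjusted p = 0.0495). SLC38A7 (SNAT7), which exports glutamine from lysosomes, read 32.6 CPM in SKMEL28 wild type and 59.2, 59.5 and 56.4 in MITFKO (log2 change 0.84 ± 0.13, adjusted p = 1.29e-05). It read 61.2, 55.0 and 50.3 CPM in clone 3 and 45.3, 51.5 and 56.6 in clone 13, both overlapping MITFKO. A375 read 16.6, 15.4 and 16.01 CPM in wild type and 19.0, 18.8 and 19.2 in TFE3KO (log2 change 0.25 ± 0.10, adjusted p = 0.0367), a call that ended without any TFE3KO library, without wild-type replicate 2 or 3, or with no filter on low counts (adjusted p = 0.0522 to 0.112).

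SLC36A4 (PAT4), a high-affinity carrier of proline and tryptophan, read 32.0 CPM in SKMEL28 wild type and 15.8, 18.3 and 14.5 in MITFKO, 1.98-fold lower (log2 change -0.98 ± 0.16, adjusted p = 2.86e-05). It read 19.4, 15.3 and 18.9 CPM in clone 3, overlapping MITFKO, and 25.8, 22.6 and 20.6 in clone 13, above it (log2 change 0.50 ± 0.12, adjusted p = 0.00243). SLC36A1 and SLC36A4 thus moved in opposite directions in MITFKO and in clone 13. In A375 SLC36A4 read 31.6, 33.2 and 33.9 CPM in wild type and 31.5, 33.8 and 37.4 in TFE3KO, which overlapped.

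SLC38A10, a less studied member of the SLC38 family, rose in both clones. It read 144 CPM in SKMEL28 wild type, 183, 176 and 194 in MITFKO, 224, 237 and 228 in clone 3 and 250.4, 258 and 256 in clone 13, with each group above the one before and no overlap. The change in MITFKO, 0.36 on the log2 scale against the 1 wild-type library, read -0.047 relative to genes of like GC. Clone 13 over clone 3 (0.15) lost its call in 6 settings (adjusted p = 0.0527 to 0.143, edgeR). The log2 change against MITFKO was 0.32 ± 0.055 in clone 3 (adjusted p = 1.10e-04) and 0.47 ± 0.055 in clone 13 (adjusted p = 6.11e-07). A375 read 77.6, 80.3 and 76.5 CPM in wild type and 83.5, 76.8 and 73.4 in TFE3KO, which overlapped and were not called. SLC38A6 was not called in MITFKO, the clones or A375. It read 14.8 CPM in SKMEL28 wild type and from 10.9 to 19.2 in the edited SKMEL28 libraries, against 4.24 to 5.46 in A375. Its exons overlap TRMT5 on the opposite strand, which stood at means of 17.8 to 21.9 CPM.

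SLC43A1 (LAT3), a facilitator of leucine and other branched-chain amino acids, had the largest rise of the expressed members in MITFKO. It read 5.33 CPM in SKMEL28 wild type and 22.7, 25.0 and 25.7 in MITFKO, 4.59-fold higher (log2 change 2.20 ± 0.20, adjusted p = 5.56e-09). It read 15.3, 13.6 and 11.4 CPM in clone 3 and 17.2, 17.4 and 17.6 in clone 13, below every MITFKO library and above the wild type. The log2 change was -0.86 ± 0.12 in clone 3 (adjusted p = 9.25e-06) and -0.49 ± 0.12 in clone 13 (adjusted p = 0.00207). A375 read 5.80, 7.10 and 6.12 CPM in wild type and 8.80, 11.1 and 10.5 in TFE3KO, a rise (log2 change 0.67 ± 0.15, adjusted p = 2.23e-04). The lines' TFE3 effects differed by -1.34 ± 0.17 (adjusted p = 4.28e-07).

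SLC43A3, whose product carries purine nucleobases, moved opposite to SLC43A1 in both the clones and A375. It read 269 CPM in SKMEL28 wild type, 340.1, 327 and 345 in MITFKO, 441, 431 and 428 in clone 3 and 491, 460.1 and 467 in clone 13, with no overlap between groups. The log2 change against MITFKO was 0.36 ± 0.052 in clone 3 (adjusted p = 1.20e-05) and 0.49 ± 0.052 in clone 13 (adjusted p = 1.61e-07). A375 read 397, 392 and 394 CPM in wild type and 284, 289.5 and 317 in TFE3KO, lower by a log2 change of -0.41 ± 0.035 (adjusted p = 2.79e-14). The difference between lines was 0.84 ± 0.062 (adjusted p = 1.07e-11).

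In A375, where MITF was not edited, TFE3 editing came with 8 expressed members higher and 2 lower of 20 tested, beside 43.3% of all 14012 genes called (21.3% higher, 22.0% lower). SLC1A4, SLC7A11 and SLC1A1 rose most, by log2 changes of 1.65, 1.11 and 1.07. The median log2 change of the members was 0.043, against 0.003 for all genes. SLC7A11, SLC43A1 and SLC1A5 fell in both DKO clones and rose in A375 TFE3KO. In the model of both lines, the TFE3 effect differed for 12 of the 19 expressed members tested within both lines, 5 with the higher log2 change in SKMEL28 and 7 with the lower, beside 37.7% of 15093 genes (18.5% higher, 19.3% lower). SLC38A1 and SLC7A8, each tested within 1 line, are not counted, whereas the 15093 genes were not limited to those tested within both lines. With SLC38A1 and SLC7A8 included, 13 of 21 expressed members were called. MITF background, line, medium and clone differ together between these effects and cannot be told apart.

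Between the unedited cells, 8 of 21 expressed members were higher in A375 and 8 lower, beside 67.6% of 16248 genes called (34.1% higher, 33.6% lower). SLC38A1 and SLC7A8 each stood near 0 in 1 line. SLC38A1 had 3 counts in the SKMEL28 wild-type library against 14173 in the 3 A375 wild-type libraries, a ratio of depth-scaled levels of 1776 (95% exact interval 608 to 8613, counting error only). SLC7A8 had 15 counts in the A375 wild-type libraries against 8174 in SKMEL28 wild type, a ratio of 1450 (878 to 2591). In A375 TFE3KO it had 63 counts, at 1.04, 1.16 and 0.163 CPM, so its difference of -1.73 between the lines' TFE3 effects rests on few counts there and is not read as a differing effect. SLC1A4 was 9.96-fold lower in A375 (log2 difference -3.32 ± 0.061, adjusted p = 1.52e-28) and SLC7A2 4.06-fold lower (-2.02 ± 0.14, adjusted p = 3.94e-14). SLC38A6 was 3.01-fold lower, SLC7A11 2.07-fold and SLC38A7 2.04-fold, all called. SLC1A3 was 5.45-fold higher in A375 (2.45 ± 0.33, adjusted p = 1.20e-07), SLC38A2 4.31-fold, SLC1A1 3.61-fold, SLC7A5 2.47-fold and SLC1A5 2.40-fold. The heavy chain SLC3A2 was not called (0.013 ± 0.062, adjusted p = 0.869), and its light chain SLC7A5 was higher in A375 by 1.30 ± 0.067 (adjusted p = 3.32e-17).

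**Figure D4:**
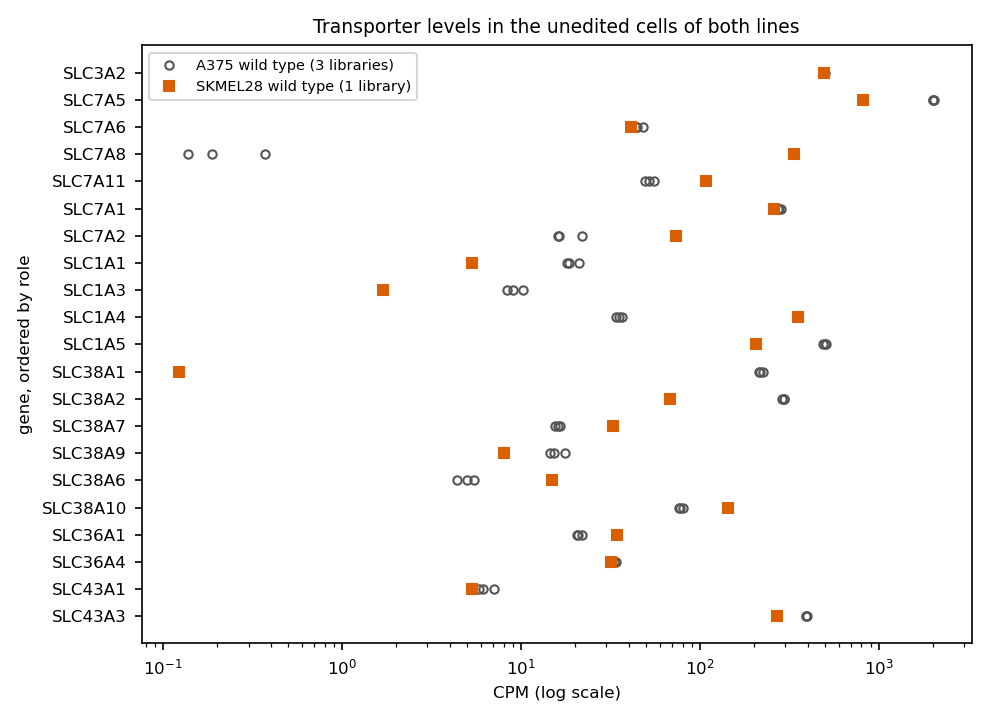
CPM (log axis) of the 21 expressed transporter genes in the wild-type libraries of A375 (3, open circles) and SKMEL28 (1, orange squares). SLC38A1 and SLC7A8 stand on opposite sides (ratios 1776 and 1450), and SLC3A2 reads 491 CPM in SKMEL28 and 489 to 502 CPM in A375.

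Other genes of amino acid supply were read from 4 lists. Their counts stand beside shares of all genes tested of 25.2% higher and 23.4% lower in MITFKO, 18.2% and 17.6% in clone 3, 20.5% and 20.2% in clone 13, and 21.3% and 22.0% in A375. Of the ATF4 amino acid response, 20 of 21 genes tested rose in MITFKO and 1 fell, with a median log2 change of 1.67. In clone 3, 0 rose and 18 fell, and in clone 13, 0 rose and 19 fell. In A375 TFE3KO, 15 rose and 5 fell (median 0.422). ATF4 itself rose in MITFKO (log2 change 2.05 ± 0.087, adjusted p = 1.62e-14), fell in clone 3 (-0.79, adjusted p = 3.51e-10) and clone 13 (-0.74, adjusted p = 4.90e-10) and rose in A375 TFE3KO (0.42, adjusted p = 1.59e-13). It was singled out after its values were seen. The largest changes in MITFKO were ASNS, asparagine synthetase (4.34 ± 0.42, from 0.738 to 15.1 CPM), the transcription factor ATF3 (4.16 ± 0.33), the pseudokinase TRIB3 (3.27 ± 0.11) and CHAC1, which degrades glutathione (3.15 ± 0.20). In the mean of the clones NUPR1 (-2.13), DDIT3, a stress transcription factor (-2.11), ALDH1L2, a mitochondrial folate enzyme (-2.08), and ASNS (-1.91) fell most. In A375 TFE3KO, CHAC1 (1.69), ASNS (1.51 ± 0.45) and ALDH1L2 (1.41) rose and STC2, a secreted glycoprotein, fell (-1.21). ASNS was near the limit of 1 CPM there, at 0.572 CPM in A375 wild type and 1.63 in TFE3KO. Of the transporters, SLC7A11, SLC43A1 and SLC1A5 rose in MITFKO, fell in both clones and rose in A375, the directions of most of this list. SLC38A2, SLC1A4, SLC1A1 and SLC38A7 rose in MITFKO and A375 and fell in neither clone, though the A375 call of SLC38A7 did not hold throughout. SLC3A2 rose in MITFKO and A375 too, and its calls in the clones were opposite.

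Of 26 genes that carry amino acid signals to mTORC1, 4 rose and 7 fell in MITFKO (median -0.07), 5 rose and 6 fell in clone 3, 7 rose and 6 fell in clone 13, and 9 rose and 5 fell in A375 TFE3KO. The 9 are 34.6% of the list against 21.3% of all genes, and the other counts, 15.4% to 26.9% of the list, lie within 10 percentage points of the shares of all genes. In clone 3 the 5 became 3 without MITFKO replicate 1 or 2, and in A375 the 9 and 5 became 5 and 3 without wild-type replicate 3. CASTOR1, the cytosolic arginine sensor (2.53 ± 0.21), and SESN2, the leucine sensor, which the ATF4 list also holds (2.52 ± 0.15), rose most in MITFKO, and SESN1 (-1.53) and FNIP2, a folliculin partner (-1.45), fell most. In the mean of the clones SESN2 (-1.25) and CASTOR1 (-0.79) fell and RRAGA, a Rag GTPase (0.67), and LAMTOR5, of its Ragulator anchor (0.47), rose. In A375 TFE3KO, SESN3 (1.86), RRAGD (0.69), DEPDC5 (0.45) and LAMTOR2 (0.43) rose.

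Of 9 genes of cystine use and glutathione tested, 4 rose and 2 fell in MITFKO, 0 rose and 4 fell in clone 3, 1 rose and 5 fell in clone 13, and 4 rose and 3 fell in A375 TFE3KO. The 5 that fell in clone 13 are 55.6% of the list, against 20.2% of all genes, and the 2 that fell in MITFKO are 22.2%, against 23.4%. Beside CHAC1, CTH, which makes cysteine from cystathionine, rose in MITFKO (1.61), fell in the mean of the clones (-1.48) and rose in A375 TFE3KO (0.58), the directions of SLC7A11. The rise in A375 was not called without TFE3KO replicate 2 (adjusted p = 0.0726). GCLC, the catalytic subunit of glutathione synthesis, fell in MITFKO (-0.52), the thioredoxin reductase TXNRD1 fell in the clones (-0.66), and GCLM, the partner of GCLC, fell in A375 TFE3KO (-0.59). GGT1, which starts the breakdown of extracellular glutathione, was not called in MITFKO (1.42) or the mean of the clones (0.91), and its call in clone 13 (1.34) ended without clone 13 replicate 1 or 2, without any 1 of the MITFKO libraries (adjusted p = 0.0563 to 0.256), with the replicate block (adjusted p = 0.0569) and with upper-quartile factors (adjusted p = 0.0513). GGT1 fell in A375 TFE3KO from 0.771 to 0.107 CPM (-2.77).

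Among amino acid transporters of other families, 7 rose and 2 fell of 16 tested in MITFKO, 2 rose and 5 fell in clone 3, 1 rose and 3 fell in clone 13, and 6 rose and 5 fell of 18 in A375 TFE3KO. The 7 are 43.8% of the list against 25.2% of all genes, the 3 that fell in clone 13 are 18.8% against 20.2%, and the 5 in A375 are 27.8% against 22.0%. The 2 that rose in clone 3 ran from 1 (without its replicate 1 or MITFKO replicate 2) to 5 (with the compared groups alone), and were 4 without both second libraries, the 3 that fell in clone 13 became 1 without its replicate 2, and the 5 in A375 became 3 without TFE3KO replicate 2. MFSD12, which imports cysteine into melanosomes and lysosomes, rose in MITFKO from 1014 to 2894 CPM (1.51 ± 0.088), while the mitochondrial aspartate-glutamate carrier SLC25A13 (-1.37) and the aromatic amino acid carrier SLC16A10 (-1.82) fell and SLC6A9, below 1 CPM, was not called (1.94). In the mean of the clones SLC6A15 (-0.92), SLC25A38 (-0.29) and SLC25A12 (-0.23) fell and SLC16A10 was not called (-0.45). The fall of SLC25A38 was not called without MITFKO replicate 3 (adjusted p = 0.0811) and that of SLC25A12 without MITFKO replicate 1 or 2 (adjusted p = 0.0568 and 0.0599). In A375 TFE3KO, SLC6A17 (1.78, below 1 CPM, and not called without wild-type replicate 1 or 2 or TFE3KO replicate 3) and SLC25A29 (0.65) rose, and the mitochondrial glutamate carrier SLC25A22 fell (-0.76).

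**Figure D5:**
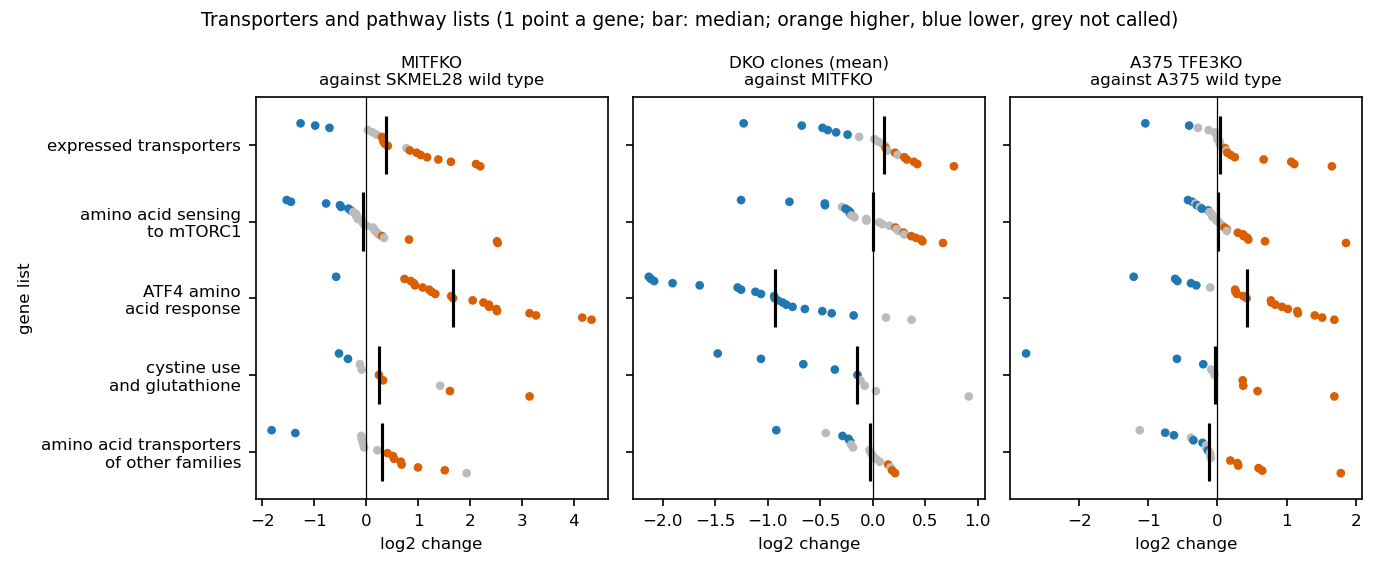
Log2 change of each gene (points) of the expressed transporters and of 4 lists of amino acid supply genes (rows) in 3 comparisons (panels), with black bars at the median and orange, blue and grey for higher, lower and not called. The ATF4 list lies mostly right of 0 in MITFKO (median 1.67) and A375 TFE3KO (median 0.422) and mostly left in the mean of the DKO clones (median -0.934). The transporters spread to both sides of 0 in each panel.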

How the data were processed

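Gene counts of 16 libraries were read as deposited; per the submitters' processing notes, STAR, featureCounts, DESeq2 and build hg19 were named, with strand setting and annotation release not given in the sources used here. Members and gene lists were chosen with earlier results of these data known. The test of these counts was edgeR's (4.0.16, under R 4.3.3): filterByExpr by group, TMM factors, a robust quasi-likelihood F-test, Benjamini-Hochberg adjustment across every gene in a fit and calls at an adjusted p under 0.05. The SKMEL28 comparisons shared a fit of 10 libraries, A375 used 6, the difference between lines 15, and the wild types 16.

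Total counts ran from 17320855 to 31269126. By the naming rule, every expressed member could be named, with up to 4 genes per pathway list and comparison (lists of amino acid sensing to mTORC1, the ATF4 response, cystine use and glutathione, and other transporter families). Alternatives were DESeq2 1.42.0, other size factors, no low-count filter, a replicate block, the compared groups alone, other expression limits and each replicate left out. A GC correction, and leaving out the second libraries of both DKO clones, were chosen after seeing the data. Of the genes the rule names, 1 is not reported here.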

Additional observations from a re-analysis of the deposited data

Results flagged for a closer look

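For 12 of the 19 expressed members tested within both lines the change that came with TFE3 editing differed between the lines by the edgeR interaction test (adjusted p under 0.05). Values are the log2 change in the mean of the DKO clones less that in A375 TFE3KO. It was higher in SKMEL28 for SLC1A3 (1.17), SLC43A3 (0.84), SLC38A9 (0.52), SLC38A10 (0.40) and SLC7A5 (0.26). It was lower in SKMEL28 for SLC7A11 (-2.33), SLC1A4 (-1.55), SLC43A1 (-1.34), SLC36A1 (-0.47), SLC7A1 (-0.45), SLC1A5 (-0.37) and SLC38A7 (-0.37). SLC7A8 (-1.73) was also called, but it rests on 15 and 63 counts in the A375 groups, was not tested within A375 and is not counted. The SLC38A9 call ended without replicate 1 or 2 of A375 TFE3KO, 1 or 3 of A375 wild type, 1 or 3 of MITFKO, 2 of clone 3 or 3 of clone 13 (adjusted p = 0.0556 to 0.151).

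For 10 members the change against MITFKO differed between the clones by the edgeR test of clone 13 against clone 3. It was higher in clone 13 for SLC1A1 (1.04), SLC38A2 (0.41), SLC43A1 (0.37), SLC36A4 (0.36) and SLC38A10 (0.15). It was lower in clone 13 for SLC7A11 (-0.76), SLC7A6 (-0.44), SLC3A2 (-0.41), SLC7A5 (-0.40) and SLC7A8 (-0.19). Without clone 3 replicate 3 the calls of SLC36A4, SLC38A10, SLC43A1 and SLC7A6 ended, without clone 3 replicate 2 those of SLC36A4 and SLC43A1, and without clone 3 replicate 1 those of SLC38A10 and SLC7A8. Without clone 13 replicate 3 the calls of SLC38A10 and SLC43A1 ended, without replicate 2 that of SLC7A6, and without replicate 1 that of SLC36A4. Adjusted p-values of these lost calls ran from 0.0527 to 0.168. Clone, kept TFE3 RNA and editing outcome cannot be told apart here.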

How the results depend on the processing

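Of 1777 values of single members under alternatives, 1697 kept their direction and call, 61 lost a call, 10 gained one and 9 changed sign. Of 121 called member results, 13 lost the call under some alternative. Sign changes without a call were SLC7A5 in clone 13 (0.012; -0.005 with upper-quartile factors, -0.028 without clone 13 replicate 2 and -0.028 without both second libraries), SLC3A2 in the mean of the clones (-0.009 without MITFKO replicate 1), SLC38A9 in clone 13 against clone 3 (0.029 without clone 3 replicate 2, 0.045 and 0.035 without clone 13 replicate 1 or 2, 0.116 without both second libraries) and SLC3A2 in A375 against SKMEL28 wild type (-0.026 with no filter). With each replicate left out these ran from -0.028 to 0.061 for SLC7A5 in clone 13, from -0.009 to 0.039 for SLC3A2 in the mean of the clones and from -0.228 to 0.045 for SLC38A9 between clones. Minus the median of genes of like GC, SLC38A10 read -0.047 and SLC7A5 -0.024 in MITFKO. The 5 members higher in clone 13 than clone 3 became 2 to 7 with each replicate left out and 2 with the compared groups alone; the cause was not tested. Other counts of called members stayed within 1.5 times. Of 606 values of other named genes, 15 lost a call (GGT1 in clone 13 also with the replicate block, adjusted p = 0.0569) and 0 changed sign, and 27 of 360 counts over pathway lists moved by more than 1.5 times; the ATF4 list kept counts of 20 higher in MITFKO, 18 and 19 lower in the clones and 15 higher in A375 throughout. Other limits gave 21 to 22 expressed members. Over all groups, replicate numbers paired the libraries weakly at most. Deviations of 12 same-numbered pairs correlated at -0.0292 to 0.0840, and 3 of 12 libraries correlated best with their own number. The highest value was that between the second libraries of clones 3 and 13. With the other libraries of the other clone these correlated at -0.0585 to -0.0332, so the second libraries deviated together in part. With the replicate block, 6 members rose and 6 fell in clone 3, 6 and 7 in clone 13, 7 and 6 in their mean, 6 and 6 between clones, 8 and 2 in A375, and 5 and 8 (SLC7A8 included) in the difference between lines. The lone SKMEL28 wild-type library cannot be left out of its own comparisons, and members at a few counts allow no fold.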
